A study of Mus musculus with 14 samples.

Results

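The interferon response genes described here are 37 genes that type I and type II interferons induce in most mouse cells, chosen by name and found as 37 of the 33459 Ensembl gene IDs in the count table. RNA-seq libraries were made from gonadal white adipose tissue (gWAT, the visceral fat pad beside the gonads) and from heart of mice lacking Fhl2, a LIM-domain scaffold protein that is abundant in heart muscle, and of wild-type mice. The groups were gWAT of Fhl2 knockout mice (KO, n = 3 libraries, numbered 1, 3 and 4), gWAT of wild-type mice (WT, n = 3, numbered 1, 3 and 4), heart of KO mice (n = 4, numbered 1 to 4) and heart of WT mice (n = 4, numbered 1 to 4). Animals of both genotypes were on a C57BL/6 background, were 21 weeks old and had been fed a high-fat diet for 8 weeks, so there is no group on another diet. The labels give no cell type for the deletion and do not state whether each library came from its own animal. The p-values therefore reflect the spread between these libraries, which may be partly technical.

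Interferons are secreted when a cell senses foreign or misplaced nucleic acid. Type I interferons bind the receptor IFNAR and induce genes through the interferon-stimulated response element (ISRE) in promoters, to which STAT2 and IRF9 are recruited, and interferon gamma binds the receptor IFNGR and induces genes through the gamma-activated sequence (GAS). The induced genes include the sensors of nucleic acid, the transcription factors of the pathway itself, proteins that bind or cut RNA, the ubiquitin-like modifier ISG15 with its enzymes, and large GTPases that act on viruses and on the vacuoles of intracellular microbes. In adipose tissue and heart these genes are expressed at a low level without infection, by immune cells as well as by the tissue's own cells.

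Promoters of 7 members are shown, among them guanylate-binding protein genes and Ifit genes, which recur below. All 7 match the ISRE core as searched here. Members with a promoter window but no match, such as Ifit2 and Isg20, are not shown. RefSeq promoter windows on GRCm38.p6, running from 250 bases before to 50 bases after the start of a gene, were found for 28 of the 37 members (34 windows). The ISRE core was searched on both strands as GAAA, any 2 bases and GAAA again, which reads as TTTC, any 2 bases and TTTC on the other strand. It was present in 18 of the 34 member windows, 52.9%, and in 1131 of 32851 windows of all genes, 3.44%. The GAS, searched as TTCNNNGAA, which reads the same on both strands, was present in 10 of the 34, 29.4%, and in 2726 of all windows, 8.30%; its letters can overlap those of an ISRE core. The stretches below have 100 bases each, written 5′ to 3′ along the gene's strand, with matches to the ISRE core in capitals. They lie at chr3:142530216-142530315 (Gbp7, plus strand), chr3:142559924-142560023 (Gbp3, plus), chr3:142620543-142620642 (Gbp2, plus), chr11:58199446-58199545 (Igtp, plus), chr19:34640759-34640858 (Ifit1, plus), chr19:34583349-34583448 (Ifit3, plus) and chr4:156200849-156200948 (Isg15, minus).
Gbp7: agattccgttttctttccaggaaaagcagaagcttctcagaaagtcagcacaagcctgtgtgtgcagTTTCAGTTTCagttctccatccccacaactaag
Gbp3: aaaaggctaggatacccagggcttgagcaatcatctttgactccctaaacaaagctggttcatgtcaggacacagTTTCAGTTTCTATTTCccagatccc
Gbp2: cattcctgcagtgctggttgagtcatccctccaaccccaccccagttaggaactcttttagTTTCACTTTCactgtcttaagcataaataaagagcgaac
Igtp: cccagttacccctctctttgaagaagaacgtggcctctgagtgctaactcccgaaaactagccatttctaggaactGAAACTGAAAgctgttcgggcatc
Ifit1: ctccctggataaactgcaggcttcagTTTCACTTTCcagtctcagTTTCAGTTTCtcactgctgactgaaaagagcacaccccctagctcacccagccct
Ifit3: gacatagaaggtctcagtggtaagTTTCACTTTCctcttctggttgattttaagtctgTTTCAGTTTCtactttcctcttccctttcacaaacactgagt
Isg15: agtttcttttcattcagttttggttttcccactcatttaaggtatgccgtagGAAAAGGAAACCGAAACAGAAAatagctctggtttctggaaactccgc
The Ifit1 and Ifit3 stretches each hold 2 separate cores. In Gbp3 and Isg15 neighbouring cores overlap, so that their capitals form 1 longer run. A match is a match of letters and was not tested for binding.

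Fhl2 itself was counted at 0.462, 0.257 and 0.451 CPM (counts scaled to 1e+06 per library) in KO gWAT libraries 1, 3 and 4, against 4.35, 6.26 and 5.70 CPM in WT gWAT. In heart it was at 34.8, 28.6, 37.8 and 34.7 CPM in KO libraries 1 to 4, against 1031, 1068, 1294 and 1396 CPM in WT. The labels and the targeted gene thus matched in every library. Library totals were 15105019 to 16040188 counts in gWAT and 10835092 to 13272412 in heart. Genes of adipocytes and of cardiomyocytes separated the tissues as labelled. Genes of atrial muscle stood apart within heart. The mean log2(CPM + 1) of Nppa, Sln, Myl4 and Myl7 was 9.44, 9.56, 6.52 and 7.14 in KO heart libraries 1 to 4, against 9.34, 9.27, 3.38 and 4.31 in WT heart libraries 1 to 4. No member lies on chromosome 1, which carries Fhl2.

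In gWAT most interferon response genes had a higher mean in KO, but few differed beyond the spread between libraries. Much of the difference rested on KO library 1, which was high, and on WT library 1, which was low. Because whole tissue was sequenced, fewer cells of a type and less RNA per cell cannot be told apart. All 37 members were tested. The log2 fold change of KO over WT was positive for 29 and negative for 8 of them, with a median of 0.25, against a median of 9.32e-05 over the 15200 genes tested. One member, the guanylate-binding protein gene Gbp7, was higher in KO at an adjusted p under 0.05 (edgeR quasi-likelihood test, Benjamini-Hochberg over all 15200 genes), and 0 were lower. The called share of all tested genes was 5.49%, with 2.01% higher and 3.48% lower, so 1 of 37 is not more than the background. At an unadjusted p under 0.05 there were 8 members, each higher in KO, where the background share in either direction was 23.1%. By DESeq2 0 members were lower and 5 were higher, namely Gbp7, Isg20, Ifih1, Gbp3 and Ifit1, where DESeq2 called 11.6% of all genes. By limma-voom 1 was higher, Gbp7, and 0 were lower, where 3.14% of all genes were called.

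**Figure D1:**
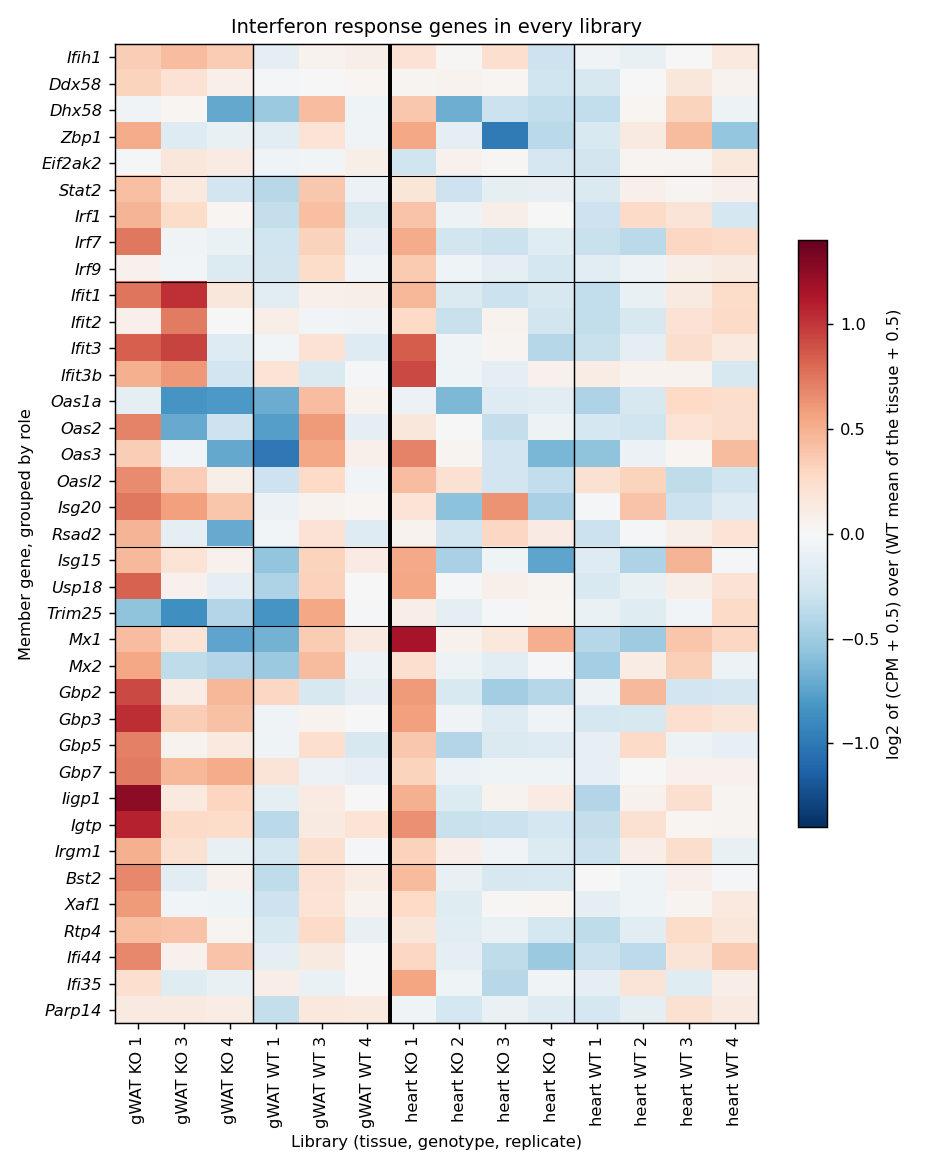
Heat map of the 37 members (rows, grouped by role) in the 14 libraries (columns, gWAT then heart, KO then WT in each). Colour is the log2 ratio of a library's CPM + 0.5 to the WT mean of the same tissue + 0.5. The column of KO library 1 is red for most members in both tissues, and the column of WT library 1 is blue for most members in gWAT.

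Groups did not overlap for 8 members in gWAT. In each of them the lowest KO library lay above the highest WT library. They were Gbp7, Isg20, Ifih1, Gbp3, Ifit1, Iigp1, Igtp and Ddx58. Over all tested genes 27.8% had groups that did not overlap, 13.3% with KO higher and 14.5% with KO lower. The members' share in either direction was thus close to the background, while 0 members had KO lower throughout. Of these 8 members 7 have a promoter window and 6 of those hold an ISRE core, where 18 of the 28 members with a window do.

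Of the 8 members with an unadjusted p under 0.05, 5 were interferon-induced GTPases. The 9 members comprise the guanylate-binding proteins, the immunity-related GTPases and the Mx proteins. In gWAT 8 of the 9 had a positive log2 fold change, the median was 0.54, and 1 passed the test. Gbp7 was at 50.6, 42.3 and 44.0 CPM in KO libraries 1, 3 and 4, against 34.5, 28.8 and 28.0 CPM in WT. Each KO library lay above each WT library, and library 1 was the highest of its group in both genotypes. The log2 fold change was 0.58 ± 0.12 (SE), 1.5-fold, with an adjusted p of 0.0377 (edgeR). GBP7 is one of the GTPases that assemble on the vacuoles of intracellular microbes. The gene is at chr3:142530342-142550149 on the plus strand, and it shares 637 exon bases with the annotated pseudogene Gm43802, so reads from that stretch are uncertain.

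Its neighbours in the cluster on chromosome 3 had positive log2 fold changes that did not pass the test. Gbp3 (chr3:142560026-142573209) was at 50.3, 31 and 32.5 CPM in KO libraries 1, 3 and 4, against 23.5, 25.2 and 24.2 CPM in WT. The groups did not overlap, and KO library 1 stood well above the others. Gbp3 had a log2 fold change of 0.64 ± 0.19 with an adjusted p of 0.0837 (edgeR). Gbp2 (chr3:142620602-142638008), which encodes one of the most abundant guanylate-binding proteins, was at 187, 106 and 137 CPM in KO, against 121, 84.6 and 90.3 CPM in WT. KO library 3 lay below WT library 1, so the groups overlapped, and the log2 fold change of 0.54 ± 0.22 had an adjusted p of 0.187 (edgeR). Gbp5 (chr3:142493978-142522344), whose product promotes inflammasome assembly, averaged 18 ± 4.75 CPM in KO and 14.2 ± 2.43 CPM in WT (SD, n = 3 each), with overlapping groups. These neighbours are similar in sequence, and reads that fit more than 1 of them are uncertain.

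Among the immunity-related GTPases, which disrupt vacuoles that hold bacteria and parasites, KO library 1 was the highest and WT library 1 the lowest of the 6 gWAT libraries for each of the 3 members. Iigp1 was at 60.8, 27.9 and 31.4 CPM in KO libraries 1, 3 and 4, against 23.1, 27.4 and 25.3 CPM in WT. KO library 1 far exceeded each of the other 5, while KO library 3 exceeded the highest WT library by less than 1 CPM. Its log2 fold change of 0.66 ± 0.27 had an adjusted p of 0.197 (edgeR). Igtp, also called Irgm3, was at 31.3, 17.7 and 17.5 CPM in KO, against 11.1, 16 and 16.7 CPM in WT. KO library 1 was the highest and WT library 1 the lowest, and the other 4 libraries lay close together. Its log2 fold change was 0.60 ± 0.26 with an adjusted p of 0.210 (edgeR). Igtp shares 162 exon bases with Irgm2 on the same strand. Irgm1 averaged 32.3 ± 6.83 CPM in KO and 27.6 ± 4.61 CPM in WT, Mx1 averaged 3.47 ± 1.49 and 3.36 ± 1.29 CPM, and Mx2 averaged 1.70 ± 0.876 and 1.70 ± 0.742 CPM. Mx1 and Mx2 encode dynamin-like antiviral GTPases that carry inactivating mutations in C57BL/6 mice.

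**Figure D2:**
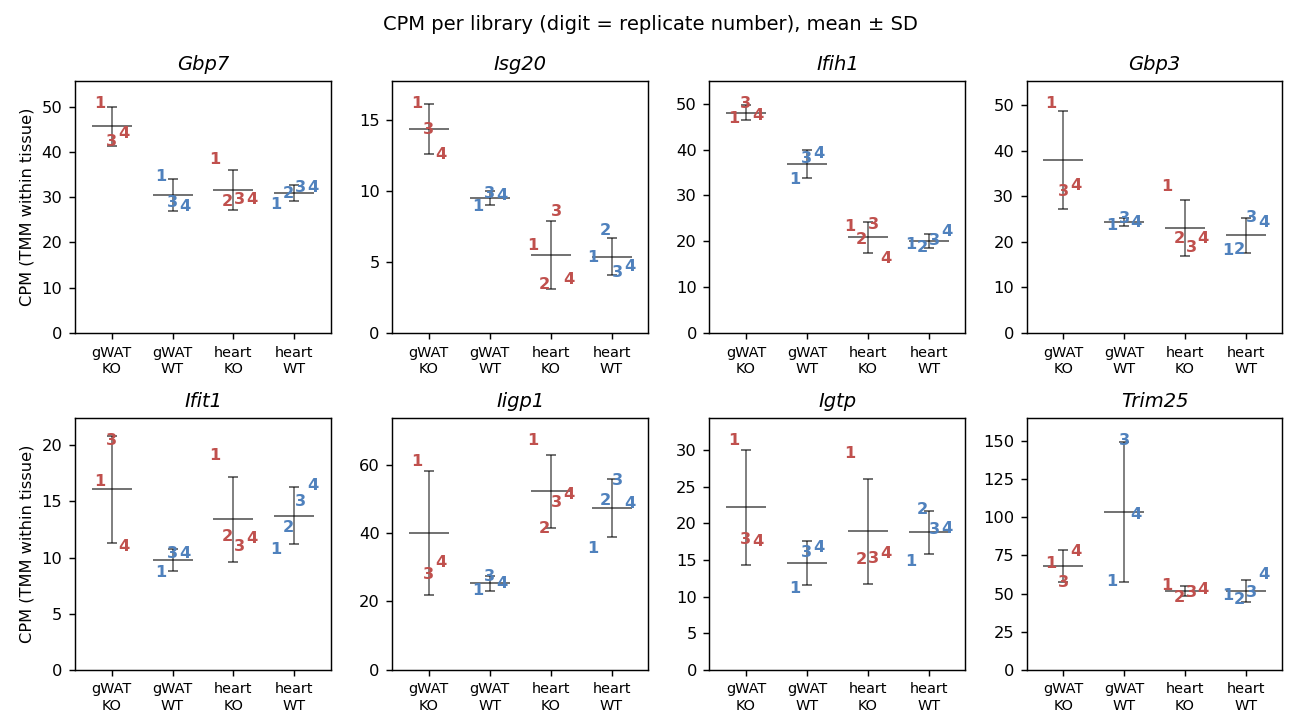
CPM of 8 members in each library, scaled by TMM within tissue. Digits are replicate numbers, red for KO and blue for WT, and black marks give the mean ± SD. Gbp7, Isg20, Ifih1, Gbp3 and Ifit1 have KO above WT in every gWAT library, Iigp1 and Igtp are set apart mainly by KO library 1, and Trim25 is highest in WT library 3.

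The 5 sensors of nucleic acid were at most slightly higher. Ifih1, which encodes the long double-stranded RNA sensor MDA5, was at 46.8, 49.97 and 47.4 CPM in KO gWAT libraries 1, 3 and 4, against 33.4, 38.1 and 39.1 CPM in WT. The 3 KO libraries lay close together and above all 3 WT libraries, and the highest was library 3, not library 1. The log2 fold change was 0.38 ± 0.10 with an adjusted p of 0.0687 (edgeR). Ddx58, which encodes the RNA sensor RIG-I, was at 47.7, 44.3 and 40.5 CPM in KO, against 37.8, 38.5 and 39.2 CPM in WT. The groups did not overlap, though KO library 4 was within 2 CPM of WT library 4, and the log2 fold change was 0.20 ± 0.10. The other 3 were Dhx58 (the regulator LGP2), Zbp1 (a sensor of Z-form nucleic acid) and Eif2ak2 (the kinase PKR), with log2 fold changes of -0.23, 0.12 and 0.09 and overlapping groups.

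Transcription factors of the pathway did not pass the test. The log2 fold changes in gWAT were 0.13 for Stat2, 0.27 for Irf1, 0.25 for Irf7 and -0.06 for Irf9, with SEs of 0.15 to 0.26 and overlapping groups. Irf7, which amplifies type I interferon production, was at 32.0, 18.3 and 17.8 CPM in KO libraries 1, 3 and 4, against 15.6, 24.0 and 17.5 CPM in WT. KO library 1 was highest and WT library 1 lowest.

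The 10 proteins that bind, modify or cut RNA were mixed. Their median log2 fold change was 0.33, 7 were positive, 0 passed the test (edgeR) and 2 were at an unadjusted p under 0.05, while by DESeq2 2 passed, Isg20 and Ifit1, and by limma-voom 0. Isg20, a 3′ to 5′ exonuclease, was at 16.1, 14.3 and 12.6 CPM in KO libraries 1, 3 and 4, against 8.91, 9.82 and 9.70 CPM in WT. Each KO library was above each WT library. The log2 fold change of 0.60 ± 0.14 had an adjusted p of 0.0501 (edgeR), just outside the threshold.

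The Ifit genes form a cluster on chromosome 19, and their proteins bind the 5′ ends of foreign RNA. Ifit1 (chr19:34640871-34650009) was at 16.8, 20.4 and 11 CPM in KO libraries 1, 3 and 4, against 8.70, 10.3 and 10.4 CPM in WT. KO library 4 cleared the highest WT library by under 1 CPM, and the log2 fold change was 0.71 ± 0.22 with an adjusted p of 0.101 (edgeR). Ifit3 (chr19:34583531-34588731) was at 30.3, 32.7 and 14.7 CPM in KO, against 16.3, 19.3 and 14.7 CPM in WT. KO libraries 1 and 3 stood above WT and KO library 4 did not, with a log2 fold change of 0.63 ± 0.28 and an adjusted p of 0.220 (edgeR). Ifit2 and Ifit3b had log2 fold changes of 0.31 and 0.35. Ifit3 and Ifit3b are near-identical copies, and how their shared reads were counted is not given in the sources used here.

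The oligoadenylate synthetases, which activate the RNA-cutting enzyme RNase L, diverged. Oasl2 was at 48.1, 38.3 and 31.8 CPM in KO gWAT libraries 1, 3 and 4, against 24.4, 36.6 and 29.2 CPM in WT. The groups overlapped, and the log2 fold change was 0.39 ± 0.19 with an adjusted p of 0.270 (edgeR). Oas1a was at 8.39, 5.01 and 5.09 CPM in KO, against 5.52, 12.7 and 9.58 CPM in WT. WT libraries 3 and 4 were highest, and the log2 fold change was -0.59 ± 0.33 with an adjusted p of 0.323 (edgeR). Oas2, Oas3 and the antiviral radical-SAM enzyme gene Rsad2 had log2 fold changes of 0.02, -0.10 and -0.04.

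Of the ubiquitin-like system, Isg15 (the modifier) and Usp18 (the protease that removes it) had log2 fold changes of 0.26 ± 0.26 and 0.34 ± 0.33. Trim25, an E3 ligase of the RIG-I pathway, was at 70.0, 57.0 and 77.5 CPM in KO libraries 1, 3 and 4, against 58.0, 150.3 and 102 CPM in WT. Here WT libraries 3 and 4 were high and WT library 1 lay among the KO libraries, and the log2 fold change was -0.60 ± 0.30 with an adjusted p of 0.273 (edgeR). The 6 other effectors were Bst2 (the tether of budding virions), Xaf1, Rtp4, Ifi44, Ifi35 and Parp14 (an ADP-ribosyltransferase). Their log2 fold changes were near 0 for Ifi35 and up to 0.45 for Ifi44, with overlapping groups. Bst2 was at 48.6, 27.3 and 31.6 CPM in KO, against 23.5, 35.0 and 32.6 CPM in WT, so KO library 1 was highest and WT library 1 lowest. Ifi35 was at 31.4, 23.8 and 24.8 CPM in KO, against 28.6, 25 and 26.6 CPM in WT, with the genotypes intermingled.

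**Figure D3:**
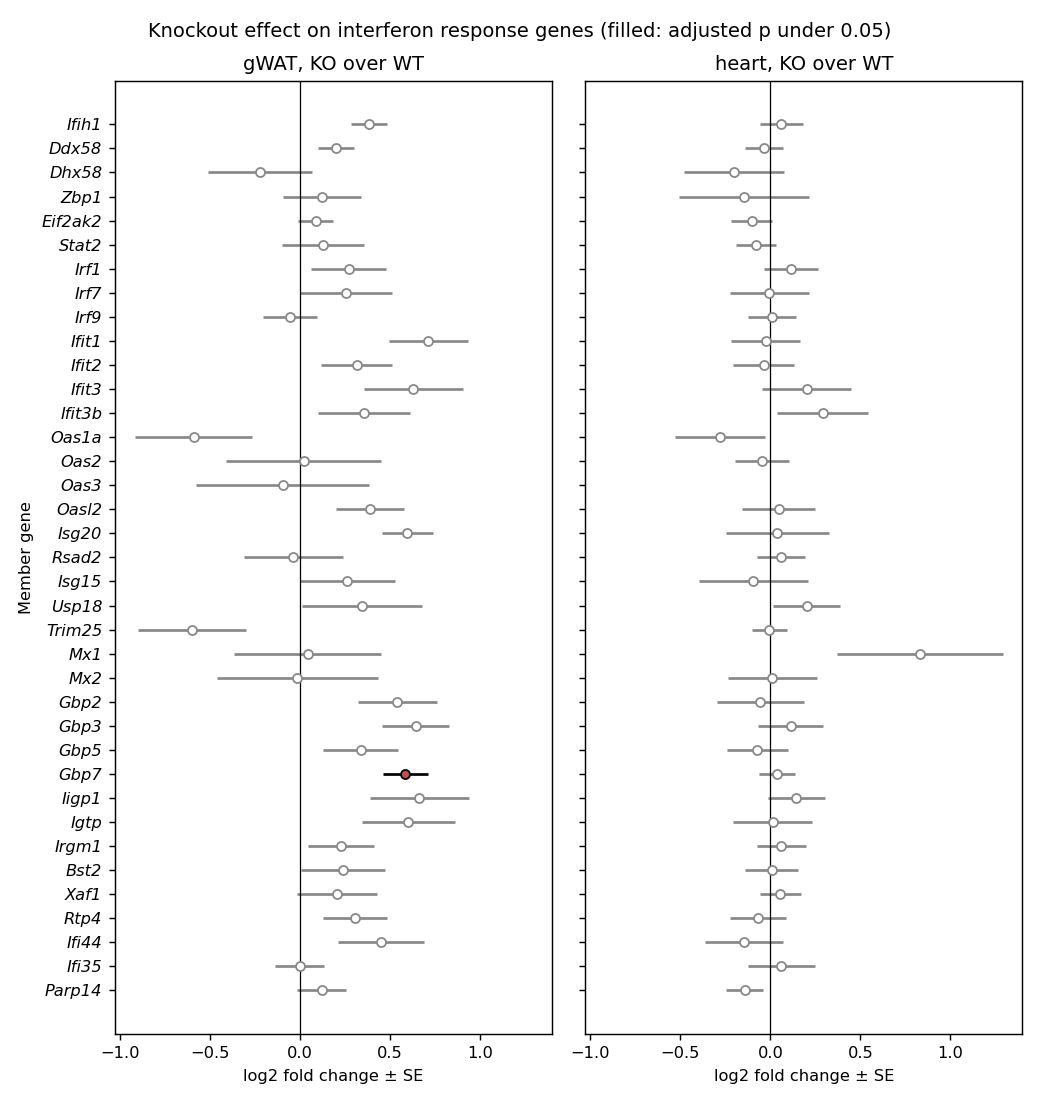
Log2 fold change of KO over WT with its SE for each member in gWAT (left) and heart (right), ordered by role from the sensors down. A filled point marks an adjusted p under 0.05, which Gbp7 in gWAT alone reached, at 0.58. The heart points lie around 0, with a median of 0.0073, and Oas3 has no point in heart because it was filtered out.

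The libraries numbered 1 stood at the ends of these values. KO library 1 was the highest of the 3 KO gWAT libraries for 29 of the 37 members, where it was the highest for 37.2% of all tested genes, and the median log2 ratio of its CPM to the mean of KO libraries 3 and 4 was 0.44. WT library 1 was the lowest of the 3 WT gWAT libraries for 29 members, with a median log2 ratio to the mean of WT libraries 3 and 4 of -0.36. Over all tested genes that median ratio was -0.018, and WT library 1 was the highest of the 3 for 39.1%. The share of all genes for which it was the lowest was not counted. The mean log2(CPM + 1) over the members was 4.64, 4.29 and 4.11 in KO libraries 1, 3 and 4, against 3.92, 4.35 and 4.14 in WT libraries 1, 3 and 4. On this mean libraries 3 and 4 of the genotypes were intermingled, with KO library 1 at the top and WT library 1 at the bottom. For the GTPases the mean was 4.91, 4.30 and 4.25 in KO, against 3.99, 4.27 and 4.11 in WT.

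Leaving libraries out moved the median accordingly. Without KO library 1 the median log2 fold change over the members was 0.12 and 21 of 37 were positive. Without WT library 1 the median was 0.13, and the calls were Gbp7, Isg20 and Gbp2 as higher and Oas1a (-0.85) and Trim25 (-0.89) as lower. That fit called 2908 of 15578 genes, 18.7%, so 5 of 37 members is no more than its background. Without both libraries numbered 1, a fit added after the values were seen, the median was -0.018, 18 members were positive, Gbp7 (0.61) and Gbp2 (0.48) were called higher, and Oas1a (-1.13) and Trim25 (-0.90) were called lower, where 3005 of 15394 genes, 19.5%, were called, so 4 of 37 is again no more than the background. Without KO library 3 or 4 the median was 0.27 or 0.38, and without WT library 3 or 4 it was 0.36 or 0.23.

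Gbp7 kept a log2 fold change of 0.51 to 0.68 in the 6 fits that left out 1 library. Its adjusted p (edgeR) was 0.00461 without WT library 1 and 0.0925 to 0.177 without any other one, so the call ended in 5 of the 6 fits. Those 5 fits called 0 members (edgeR), with 5 to 10 members at an unadjusted p under 0.05. The share of all genes at that p was not counted in those fits. Over all genes those fits called 132 without WT library 3 and 0 in the other 4. With the replicate number as a block Gbp7 had an adjusted p of 0.0729 (edgeR).

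**Figure D4:**
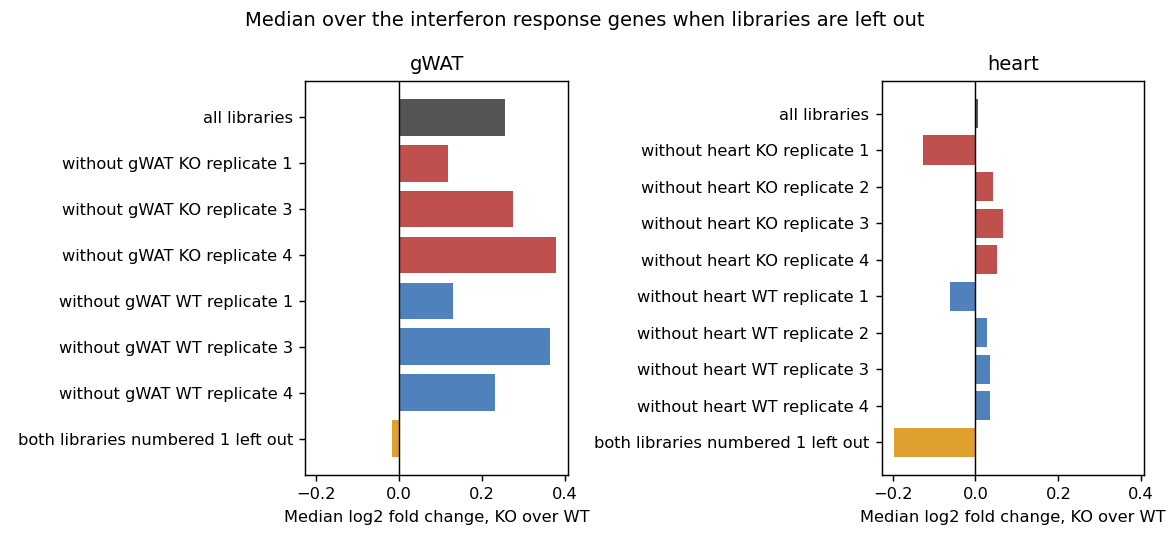
Median log2 fold change over the members, KO over WT, with all libraries (grey), without 1 KO library (red), without 1 WT library (blue) and without both libraries numbered 1 (orange), in gWAT (left, 37 members) and heart (right, 36 members). In gWAT the median falls to 0.12 without KO library 1, by a similar amount without WT library 1, and to -0.018 without both. In heart it is -0.13 without KO library 1 and -0.20 without both.

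In heart no member differed between the genotypes beyond the spread between libraries, and the KO library numbered 1 was again high. Of the 37 members 36 were tested, since Oas3 (0.710 ± 0.50 CPM in KO and 0.676 ± 0.333 CPM in WT, SD, n = 4 each) did not pass the filter on low counts. At an adjusted p under 0.05 0 members were called (edgeR), 0 were at an unadjusted p under 0.05, where the background share was 3.2%, and DESeq2 and limma-voom also called 0. The called share of all 14159 tested genes was 0.00706%, a single gene. The log2 fold change was positive for 19 and negative for 17 members, with a median of 0.0073, against -0.0030 over all tested genes. Groups overlapped for each of the 36, where 2.41% of all tested genes had groups that did not, 1.24% with KO higher and 1.17% with KO lower.

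KO heart library 1 was the highest of the 4 KO libraries for 32 of 37 members, where it was the highest for 28.9% of all tested genes. The median log2 ratio of its CPM to the mean of the other 3 was 0.50. In both tissues KO library 1 was the highest KO library for 26 members. The mean log2(CPM + 1) over the members was 4.17, 3.67, 3.71 and 3.65 in KO heart libraries 1 to 4, against 3.61, 3.80, 3.93 and 3.88 in WT heart libraries 1 to 4. As in gWAT, KO library 1 was the highest and WT library 1 the lowest. Reads on the members made up 0.0906% of all counts in KO heart library 1 and 0.0598% to 0.0655% in KO libraries 2 to 4, against 0.0608% to 0.0721% in WT heart. The labels do not say that libraries of 1 number come from 1 animal. The deviations of the KO libraries from their group means, over 13370 genes tested in both tissues, correlated at 0.25 between gWAT and heart for number 1, at -0.03 for number 3 and at 0.12 for number 4. Differently numbered KO pairs ran from -0.23 to 0.16, and same-numbered WT pairs from -0.04 to 0.09.

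Gbp7 illustrates this in heart, at 38.3, 29.0, 29.5 and 29.5 CPM in KO libraries 1 to 4, against 28.4, 30.7, 32.1 and 32.1 CPM in WT. KO library 1 was highest, the other 3 KO libraries lay within 1 CPM of each other, and the groups overlapped. Igtp was at 29.5, 15, 15.2 and 15.8 CPM in KO, against 14.8, 21.9, 19.2 and 19.3 CPM in WT. Its mean was 18.9 ± 7.11 CPM in KO and 18.8 ± 2.93 CPM in WT (SD, n = 4 each), although KO library 1 stood far above the other KO libraries. Iigp1 was at 67.0, 41.4, 49.0 and 51.4 CPM in KO, against 35.6, 49.5, 55.5 and 48.7 CPM in WT, again with KO library 1 at the top and WT library 1 at the bottom.

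The 5 members with the smallest p in heart had an adjusted p of 1.0 (edgeR). Mx1 was at 2.27, 0.791, 0.873 and 1.26 CPM in KO heart libraries 1 to 4, against 0.442, 0.382, 1.13 and 1.02 CPM in WT, with a log2 fold change of 0.83 ± 0.46. Its level was low, 64 counts over the 4 KO libraries and 36 over the 4 WT libraries. Parp14 was at 51.6, 45.2, 50.4 and 47.3 CPM in KO, against 45.2, 48.7, 62.2 and 58.9 CPM in WT, with a log2 fold change of -0.14 ± 0.10. Ifit3b was at 8.83, 4.22, 3.97 and 4.63 CPM in KO, against 4.79, 4.59, 4.60 and 3.73 CPM in WT, and its log2 fold change of 0.29 ± 0.25 was -0.054 without KO library 1. In these 3 genes the groups overlapped, and in Mx1 and Ifit3b KO library 1 was the highest. Oas1a was at 2.66, 1.67, 2.46 and 2.52 CPM in KO, against 1.99, 2.37, 3.56 and 3.48 CPM in WT, with a log2 fold change of -0.28 ± 0.25. Usp18 was at 6.02, 3.96, 4.2 and 4.12 CPM in KO, against 3.39, 3.67, 4.25 and 4.66 CPM in WT, with a log2 fold change of 0.20 ± 0.19.

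Without KO heart library 1 the median log2 fold change was -0.13 and 6 of 36 members were positive. Without both heart libraries numbered 1, a fit added after the values were seen, the median was -0.20 and 1 of 36 was positive. That fit called 0 members (edgeR), and 5 were at an unadjusted p under 0.05, namely Igtp, Ifit1, Stat2, Dhx58 and Parp14. The share of all genes at that p was not counted in this fit, so these 5 have no background beside them. Without 1 of the other libraries the median was -0.062 to 0.066. Heart libraries 1 and 2 were the ones with high atrial genes in both genotypes, while KO library 2 was not high for the members. A fit with the atrial level as a covariate called 0 of 36 members, where it called 8 of 14159 genes (edgeR). That fit tested the KO effect, and the part of atrial content in the members' values was not tested.

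The members varied together between libraries of 1 group. Over the 6 gWAT libraries, as deviations from the group mean, the median pairwise correlation between members was 0.61 and 83.3% of pairs were positive, against a median of 0.028 between a member and any tested gene. Without KO library 1 it was 0.57, and without both libraries numbered 1 it was 0.40, with 63.8% of pairs positive. In a gWAT group without library 1 the remaining libraries deviate by equal and opposite amounts, so these correlations rest on fewer independent values. In heart the median was 0.59 over 8 libraries, 0.38 without KO library 1 and 0.12 without both libraries numbered 1. In the last 55.7% of pairs were positive. These values describe few libraries that share scaling and depth, and carry no test.

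The difference between the tissues in the KO effect was tested itself, as the gWAT effect minus the heart effect in 1 fit of all 14 libraries. It was positive for 28 and negative for 9 of the 37 members, with a median of 0.23 on the log2 scale against -0.0042 over all tested genes. At an adjusted p under 0.05 0 members differed (edgeR), 2 were at an unadjusted p under 0.05, and DESeq2 and limma-voom called 0. The called share of all 16014 tested genes was 1.15%, with 0.362% higher and 0.787% lower, and 15.2% were at an unadjusted p under 0.05. The difference was 0.54 ± 0.17 for Gbp7 with an adjusted p of 0.119 (edgeR) and 0.74 ± 0.31 for Ifit1 with an adjusted p of 0.275 (edgeR). It was 0.32 ± 0.16 for Ifih1, -0.59 ± 0.31 for Trim25 and 0.53 ± 0.28 for Gbp3. A KO effect on these genes that is particular to gWAT was not shown by this test. Without WT gWAT library 1 the difference of Gbp7 was 0.67 with an adjusted p of 0.0193 and that of Trim25 was -0.86 with an adjusted p of 0.0208 (edgeR), in a fit that called 1315 of 16375 genes, 8.03%. The median was 0.038 without KO gWAT library 1, 0.39 without KO heart library 1, and 0.20 without both, the last a fit added after the values were seen.

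Between the organs of WT mice the members differed in both directions. In heart against gWAT, on the TMM scale, 13 were higher and 10 were lower at an adjusted p under 0.05 (edgeR), with a median log2 difference of 0.14, against -0.032 over all 16014 tested genes. Of all tested genes 70.5% were called, 33.9% higher and 36.6% lower, so 23 of 37 called members is no more than the background. On library totals with no scaling factor 4 members were higher and 17 lower, with a median of -0.45 for the members and -0.61 for all genes. That fit called 76.1% of all genes. Of the sensors 4 of 5 were lower in heart on the TMM scale and 5 of 5 on library totals. Of the GTPases 6 of 9 were higher and 2 lower on the TMM scale, whereas on library totals 1, Iigp1, was higher and 2 were lower. The levels below are scaled by TMM across all 14 libraries. Ifi44, a cytoplasmic antiviral protein gene, averaged 11.7 ± 3.03 CPM in heart and 2.47 ± 0.202 CPM in gWAT (SD, n = 4 and n = 3), a log2 difference of 2.23 ± 0.25. Rsad2 averaged 40.9 ± 5.83 CPM in heart and 14.1 ± 1.89 CPM in gWAT, a log2 difference of 1.53 ± 0.23, and Iigp1 averaged 55.3 ± 9.80 and 20.5 ± 1.32 CPM. Zbp1 averaged 3.88 ± 1.30 CPM in heart and 9.17 ± 1.06 CPM in gWAT, a log2 difference of -1.24 ± 0.32. Eif2ak2 averaged 24.4 ± 2.89 and 41.2 ± 1.98 CPM, a log2 difference of -0.76 ± 0.11.

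Levels of different genes were compared per exon length, as CPM per kilobase. In gWAT Gbp2 was the highest member, at 57.0 in KO and 39.2 in WT, before Bst2 at 39.7 in KO and 33.6 in WT. By the mean over all 6 gWAT libraries the next were Ifi35, at 15.4 in KO and 15.5 in WT, Trim25 at 11.8 in KO and 18 in WT, and Ifit3 at 14.8 in KO and 9.60 in WT. Their order differs between the genotypes, and in WT gWAT Parp14 (10.2) and Eif2ak2 (9.94) lay above Ifit3. In heart Bst2 led at 18.7 in KO and 18.6 in WT, then Gbp2 at 14.1 in KO and 14.6 in WT, with Igtp, Trim25 and Iigp1 between 8.12 and 9.34 in both genotypes. In heart Bst2 was at 23.0, 15.6, 14.4 and 14.5 CPM in KO libraries 1 to 4, against 16.8, 16.1, 17.6 and 16.6 CPM in WT. Heart Gbp2 was at 56.0, 31.6, 26.2 and 27.8 CPM in KO, against 35.1, 50.5, 30.5 and 31.3 CPM in WT, and heart Trim25 was at 55.5, 47.2, 50.9 and 52.8 CPM in KO, against 48.5, 46.0, 50.5 and 62.3 CPM in WT. The groups overlapped in these 3 genes. Oas3 was the lowest member per length in both tissues, at 0.381 CPM per kilobase in KO gWAT and 0.405 in WT gWAT.

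Other genes of the pathway passed the test in gWAT in both directions. Of all tested genes 2.01% were called higher and 3.48% lower, and 23.1% were at an unadjusted p under 0.05 (edgeR). Interferon ligands were close to the limit of detection: Ifng, the type II interferon, had 11 counts over the 3 KO gWAT libraries and 3 over the 3 WT ones, and Ifnb1 and Ifnk had at most 1 count per group. None was tested. Ifne, Ifna1, Ifna2, Ifna4, Ifna5, Ifna6, Ifnl2 and Ifnl3 were looked up by name and not found among the counted genes. Further ligand genes were not analysed here. Of 14 receptors and kinases tested, 0 passed (edgeR), with 1 higher and 3 lower at an unadjusted p under 0.05 and a median log2 fold change of -0.10. Ifngr2, a chain of the interferon gamma receptor, was at 43.8, 53.8 and 52.8 CPM in KO libraries 1, 3 and 4, against 63.2, 75.2 and 78.7 CPM in WT. Its groups did not overlap, and its log2 fold change of -0.53 ± 0.13 had an adjusted p of 0.0504 (edgeR). The other chain, Ifngr1, had a log2 fold change of 0.33 ± 0.11 and an adjusted p of 0.126 (edgeR). Ptpn6, a phosphatase of the kinases mostly found in blood cells, and Il10rb, a chain of the type III receptor, had log2 fold changes of -1.13 ± 0.31 and -0.58 ± 0.17, with adjusted p-values of 0.0748 and 0.0822 (edgeR).

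Genes of interferon induction fell where they passed. Of 14 tested in gWAT 3 were lower and 0 were higher (edgeR), where 3.48% of all tested genes were lower. At an unadjusted p under 0.05 8 were lower and 0 higher, where 23.1% of all genes were at that p in either direction. The median log2 fold change was -0.40. Tlr7, an endosomal receptor of single-stranded RNA, was at 18.9, 20.9 and 19.1 CPM in KO libraries 1, 3 and 4, against 27.8, 35.0 and 33.2 CPM in WT, a log2 fold change of -0.70 ± 0.12 with an adjusted p of 0.0271 (edgeR). Irf8, a transcription factor of myeloid cells, was at 28.1, 28.4 and 29.7 CPM in KO, against 41.0, 65.4 and 49.1 CPM in WT, a log2 fold change of -0.85 ± 0.17 with an adjusted p of 0.0313 (edgeR). Tbk1, the kinase that activates IRF3, was at 34.5, 36.9 and 37 CPM in KO, against 45.2, 49.0 and 49.2 CPM in WT, a log2 fold change of -0.41 ± 0.10 with an adjusted p of 0.0487 (edgeR). The highest KO library was below the lowest WT library in each of these 3 genes. The related kinase gene Ikbke had a log2 fold change of -1.25 ± 0.32 and an adjusted p of 0.0612 (edgeR). Since 0 genes of any kind passed without WT library 4 or without any 1 of the KO libraries, these calls ended in those 4 fits.

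Of 53 other interferon targets 52 were tested in gWAT, and 1 was higher and 2 were lower (edgeR), with 36 positive and a median log2 fold change of 0.12. The called share of all tested genes was 5.49%. Gbp2b, the neighbouring guanylate-binding protein gene also called Gbp1, was at 2.05, 1.67 and 1.16 CPM in KO libraries 1, 3 and 4, against 0.276, 0.250 and 0.243 CPM in WT. That is 75 counts over the 3 KO libraries and 12 over the 3 WT libraries, a log2 fold change of 2.63 ± 0.39 with an adjusted p of 0.0221 (edgeR). Reads it shares with similar Gbp genes are uncertain. Slfn9 and Slfn2, members of the Schlafen family, had log2 fold changes of -0.70 ± 0.16 and -1.09 ± 0.25, with adjusted p-values of 0.0454 and 0.0456 (edgeR). The calls of Gbp2b, Slfn9 and Slfn2 also ended without WT library 4 or without any 1 of the KO libraries. Ifi27l2a was at 1096, 878 and 1021 CPM in KO, against 724, 548 and 721 CPM in WT, a log2 fold change of 0.59 ± 0.16 with an adjusted p of 0.0707 (edgeR). KO library 1 was the highest KO library for 36 of the 52 targets in gWAT and for 42 of the 51 tested in heart. For the receptors and kinases it was so for 4 of 14 in gWAT and 6 of 13 in heart.

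In heart 0 of the 13 receptors and kinases, 0 of the 14 induction genes and 0 of the 51 other targets tested passed (edgeR), and over these lists 1 higher and 2 lower were at an unadjusted p under 0.05. Of all genes tested in heart 3.2% were at that p. Among those with the smallest p, Ifi207 and Helz2 had log2 fold changes of -0.32 ± 0.12 and -0.26 ± 0.11, Ptpn2 and Ifnar2 of -0.17 ± 0.10 and -0.14 ± 0.10, and Irf5 and Myd88 of -0.25 ± 0.15 and -0.28 ± 0.17. Their adjusted p was 1.0 (edgeR).

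Markers of immune cells differed in direction from list to list in gWAT. Over all tested genes 2.01% were called higher and 3.48% lower, and 23.1% were at an unadjusted p under 0.05 (edgeR). The macrophage genes Adgre1, Cd68, Csf1r, Lyz2, Mrc1 and Itgam were all lower in the KO mean, 2 of the 6 by the test, with a median log2 fold change of -0.80. Their summed level was 1555, 1534 and 1746 CPM in KO gWAT libraries 1, 3 and 4, against 1793, 3991 and 3096 CPM in WT. WT library 3 was the highest and WT library 1 lay near the KO libraries, an order shared with Trim25, Oas1a, Ptpn6 and Ikbke. The place of WT library 3 is not particular to these genes. It was the highest WT gWAT library for 27 of the 37 members and for 40.7% of all tested genes. The T and NK cell genes, 6 of which were tested and 0 called, summed to 16.1, 5.39 and 5.67 CPM in KO gWAT libraries, against 6.90, 12 and 8.61 CPM in WT, so KO library 1 was the highest there too. In heart 1 of the 6 T and NK cell genes passed the filter on low counts. The sum of the 6 was 2.34 CPM in KO heart library 1. It was 1.76 to 3.49 CPM in KO libraries 2 to 4, against 1.69 to 3.52 CPM in WT. The 5 neutrophil genes summed to 8.98, 7.51 and 9.60 CPM in KO gWAT, against 27.2, 16.6 and 15.9 CPM in WT, with Ly6g at 0 in each library, and the 2 tested were lower at an unadjusted p under 0.05 with 0 called (edgeR). The 5 plasmacytoid dendritic cell genes, which include the member Bst2, had a mean log2(CPM + 1) of 3.01, 3.07 and 2.91 in KO gWAT libraries 1, 3 and 4, against 2.70, 2.79 and 2.69 in WT, with 0 of 3 tested called and 1 at an unadjusted p under 0.05. Genes of other cell type lists passed the test. Of 5 adipocyte genes 1 was called higher in KO gWAT, with a median log2 fold change of 0.37. Of 5 cardiomyocyte genes 1 was called lower, with a median of 0.028. Of 7 lipid-associated macrophage genes 5 were called lower in KO gWAT, with a median log2 fold change of -2.22. Of 5 mesothelial genes 3 were called higher, with a median of 1.12, and their sum was 352, 429.9 and 254 CPM in KO libraries 1, 3 and 4, against 206, 98.5 and 173 CPM in WT. No gene of any kind was called in gWAT without WT library 4, without any 1 of the KO libraries or with the replicate block. The marker calls ended in those fits. The part of these cells in the members' values was not tested.

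**Figure D5:**
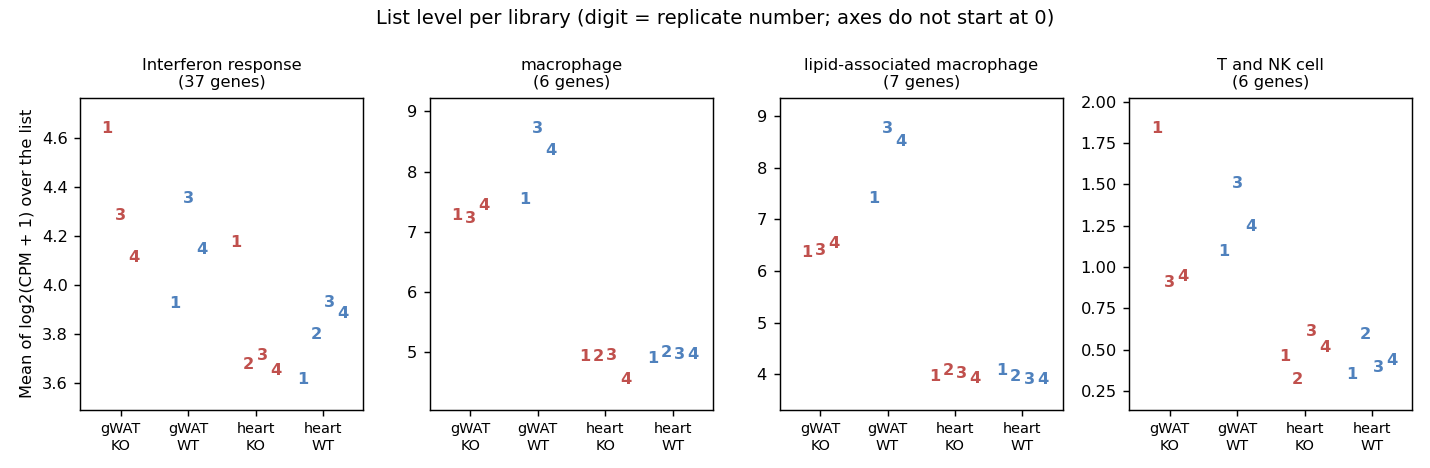
Mean log2(CPM + 1) per library over the interferon response genes, macrophage genes, lipid-associated macrophage genes and T and NK cell genes, from left to right. Digits are replicate numbers, red for KO and blue for WT, and the axes do not start at 0. The members are highest in KO library 1 of both tissues (4.64 in gWAT and 4.17 in heart), while the macrophage lists are highest in WT libraries 3 and 4 of gWAT.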

How the data were processed

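Gene expression was measured by mRNA sequencing of 14 libraries from flash-frozen tissue (Trizol RNA, Kapa mRNA HyperPrep kit, per the labels' protocols). The authors deposited unnormalized whole-number counts of reads per Ensembl gene. Tools listed in the submitters' processing notes, without role or order, are HTSeq 0.11.0, HISAT2 2.1.0, Trimmomatic 0.32, limma, Picard and FastQC, and the build is mm10. How strand was handled and which annotation was used were not given in the sources used here, so genes that overlap others or belong to near-identical families are uncertain. Columns without a sample numbered 0.

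The 37 members and all lists were chosen with earlier results of these data known. Genes were filtered (filterByExpr), scaled (TMM) and tested by the quasi-likelihood F test of edgeR 4.0.16 (R 4.3.3) with Benjamini-Hochberg adjustment at 0.05 over all tested genes, each tissue alone; the difference between tissues and heart against gWAT came from 1 fit of 14 libraries. SEs are the log2 fold change over the square root of F. Alternatives used DESeq2 1.42.0, limma-voom 3.58.1, other scaling and filters, a replicate block, left-out libraries and, in heart, the atrial level as a covariate. Per-sample values are given for the members with the smallest p (10 in gWAT, 5 in heart, 5 in the difference between tissues) and the 5 highest per length in each tissue; of each pathway list up to 4 genes are named in gWAT and 2 in heart. Genes singled out beyond this rule, such as Ddx58 and Irf7, were chosen after their values were seen. Coordinates are GENCODE M21 (GRCm38). No pair of libraries within a group was a duplicate (18 pairs, chi-square per degree of freedom at least 3.53). As a check of pairing, deviations of same-numbered KO and WT libraries from their group means correlated at -0.22 to 0.03 in gWAT. In heart they correlated at 0.26 to 0.37. Numbers were not taken as pairs in the reported fit of either tissue, and the replicate block was an alternative in both. Differently numbered heart pairs reached 0.47 (KO 2 with WT 1), following libraries 1 and 2 against 3 and 4, and the labels do not say what a number marks.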

Additional observations from a re-analysis of the deposited data

Results flagged for a closer look

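In groups of 4 heart libraries, a level was listed where the highest or lowest library stood apart from the others by Dixon's criterion, which chance meets in about 1 in 20 groups. Of 76 group values tested over the members and their mean, 12 met it, 10 in KO heart and 2 in WT heart. KO library 1 was the high one for Irf7 (24.6 CPM), Ifit1 (19.1 CPM), Ifit3b (8.83 CPM), Usp18 (6.02 CPM), Gbp3 (32.3 CPM), Gbp7 (38.3 CPM), Igtp (29.5 CPM) and Bst2 (23.0 CPM), and for the mean log2(CPM + 1) over the members (4.17). Ddx58 was low in KO library 4 (19.8 CPM). In WT heart Stat2 was low in library 1 (19.96 CPM) and Gbp5 was high in library 2 (22.5 CPM). The members vary together, so these are not independent observations, and the cause was not tested.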

How the results depend on the processing

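In gWAT the count of members called higher, 1 of 37 as reported, was 4 at a threshold of 0.1 and 5 with DESeq2. Of all genes these settings called 11.8% and 11.6%. The member count was 2 with RLE scaling, 4 with no low-count filter and 2 with a mean of at least 10 counts. Those settings called 5.49%, 5.66% and 5.43% of all genes. Without both libraries numbered 1 it was 2 higher and 2 lower, where 19.5% of all genes were called. The median log2 fold change was then -0.018. Gbp7 was called in each of these. With the replicate block it was 0 members and 0 genes in all. Leaving out 1 library gave 0 to 3 members higher and 0 to 2 lower. The counts of all genes called, 834 of 15200 as reported, were 1800 at a threshold of 0.1, 1769 of 15196 with DESeq2 and 477 with limma-voom. They were 1600 of 28283 with no filter and 1725 of 16014 in 1 fit of all libraries. Without 1 library they were 0 to 2908 (the highest without WT replicate 1, of 15578). Without both libraries numbered 1 they were 3005 of 15394.

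In heart 0 members were called under each alternative, the replicate block included. Its median was -0.20 without both libraries numbered 1. Ifit3b turned to -0.054 without KO library 1 (range 0.42 down to that value when 1 library was left out) and to -0.013 without both libraries numbered 1, where Usp18 was at -0.033. The difference between tissues gave 0 to 1 member higher and 0 to 1 lower when 1 library was left out.

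In heart against gWAT, library totals without scaling gave 4 higher and 17 lower with a median of -0.45, where 76.1% of all genes were called. Ifit3 was then at -0.52, at -0.027 without WT heart replicate 3 and at -0.024 without WT gWAT replicate 4 (-0.027 to 0.16 over the fits without 1 library). The cause of these changes was not tested. With 3 or 4 libraries a group and single libraries that stand apart, small effects on single members could not be resolved. Low members such as Oas3 and Mx1 rest on few counts.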
